A study of Mus musculus with 6 samples.

Results

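The genes described here belong to interleukin-6 (IL-6) family cytokine signalling. They were chosen by name as 10 genes of the pathway, and all 10 were among the 22913 genes with counts and among the 12827 with enough counts to be tested. There were 4 ligand genes (Lif, Il6, Il11 and Clcf1), 3 receptor chain genes (Il6st, Lifr and Osmr), the kinase gene Jak1, the transcription factor gene Stat3 and the feedback inhibitor gene Socs3. Poly(A) RNA was sequenced from HL-1, an established mouse atrial cardiomyocyte line, 48 h after transfection by Lipofectamine with a control plasmid (3 libraries) or with a plasmid for overexpression of human HSPA1A, the inducible chaperone of the HSP70 family (3 libraries). All 6 samples came from this 1 line. Nothing in the labels tells whether the replicates were grown and transfected separately. A p-value here sets the difference between the groups against the spread of libraries within them, and that spread may be only technical. Values given in threes follow the order of replicates 1, 2 and 3.

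Cytokines of this family bind a receptor chain of their own and then recruit the shared chain gp130, encoded by Il6st, alone or together with the LIF receptor or the oncostatin M receptor. Kinases of the JAK family on the receptor tails phosphorylate STAT3, which enters the nucleus and switches on target genes, among them Socs3, whose product binds gp130 and JAKs and shuts the signal down. In heart muscle cells, LIF and related ligands are known as inducers of survival and hypertrophic growth.

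The libraries held between 23849656 and 26897086 counts. HSPA1A replicate 2 stood apart from the other HSPA1A libraries. The leading principal component held 38.0% of the variance in log2 CPM. There its position was -12.8, against 12.8 and 14.9 for the other HSPA1A libraries and -6.81 to -3.46 for the controls. By chi-square per degree of freedom it differed less from the controls (8.2122, 11.0035 and 9.5591) than from HSPA1A replicates 1 and 3 (26.0601 and 21.7968). HSPA1A replicates 1 and 3 differed from each other by 7.4179. Why HSPA1A replicate 2 was nearer to the controls was not tested. Mouse Hspa1a had 10, 17 and 11 reads under the control plasmid and 17, 20 and 11 under HSPA1A, and reads of a human transcript are counted there only as far as they align to the mouse gene, so these counts do not check the labels. The share of counts on Yam1, a noncoding transcript, ran from 1.18% to 1.86% in control libraries. It was 2.70%, 1.58% and 2.53% in HSPA1A libraries, so HSPA1A replicate 2 lay within the control range. Of 14 heart muscle marker genes, Tnnt2, Gata4, Nkx2-5, Nppb and Myl4 were present at a mean of 29.8, 8.28, 2.20, 5.03 and 0.883 FPKM, while Actc1, Ryr2, Tnni3, Actn2 and Tbx5 were at or near 0 and Myl7, Pln, Nppa and Myh6 were not analysed here. Of 7 fibroblast marker genes, Col1a2, Col1a1 and Dcn stood at a mean of 51.8, 11.2 and 8.01 FPKM. Pdgfra and Postn were low, at 0.415 and 0.152 FPKM, and Lum and Thy1 were at or near 0. The summed level of the 7, nearly all of it Col1a2, Col1a1 and Dcn, was 74.0 to 76.0 FPKM in control and 65.6 to 71.99 FPKM in HSPA1A libraries. In counts scaled by TMM the groups overlapped for Col1a2, Col1a1 and Dcn, and none was called (adjusted p = 0.801, 0.539 and 0.931, edgeR). The part of fibroblast-like cells or of this expression in the results below was not tested. The leukocyte marker genes Ptprc, Csf1r, Itgam and Lyz2 were at or near 0, and the summed level of the leukocyte list, nearly all of it Cd14 and Cd68, was 11.6 to 14.4 FPKM in control and 10.6 to 17.2 FPKM in HSPA1A libraries.

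None of the 10 genes was called different between HSPA1A and control cells (0 of 10 with a Benjamini-Hochberg adjusted p below 0.05 over all tested genes in the quasi-likelihood test of edgeR, where 0.179% of all tested genes were called). The ligand genes Lif and Il6, the receptor gene Osmr and Stat3 had the lowest p-values, with estimates below the control level by 26.7%, 31.0%, 17.8% and 10.1%. Their unadjusted p-values were under 0.05, which held for 4 of 10 genes in the lower direction against 4.26% of all tested genes, and for 0 of 10 in the higher direction against 4.33%. Because the genes were chosen with results of these data known, the count of 4 is a description. DESeq2 called 0 of the 10 as well, where it called 0.296% of all tested genes lower and 0.203% higher. Over the 10 genes the median log2 fold change was -0.055, with 6 values negative, against a median of 0.0029 and 49.0% negative values over all tested genes.

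The gene positions below are those of GENCODE M21 on mouse build GRCm38. The promoter sequences and their starts are from RefSeq on GRCm38.p6. Starts in these annotations differ for some genes, so some promoters lie partly or wholly inside the gene spans given below. The 250 bases before the start of Lif and of Il6 are printed because these were the ligand genes with an unadjusted p under 0.05. In capitals are matches, on either strand, to 1 of 4 motifs: TTCNNNGAA for STAT factors, GGNNTTTCC for NF-kB, TGANTCA for AP-1 and TTGNNCAA for C/EBP factors. No matches overlapped each other in these promoters.
Lif, chr11:4257318-4257567, plus strand: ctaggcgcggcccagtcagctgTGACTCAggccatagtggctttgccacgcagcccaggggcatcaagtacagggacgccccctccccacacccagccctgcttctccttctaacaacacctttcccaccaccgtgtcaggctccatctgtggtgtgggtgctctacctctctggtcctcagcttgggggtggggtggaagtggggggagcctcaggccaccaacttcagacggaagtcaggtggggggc
Il6, chr5:30012864-30013113, plus strand: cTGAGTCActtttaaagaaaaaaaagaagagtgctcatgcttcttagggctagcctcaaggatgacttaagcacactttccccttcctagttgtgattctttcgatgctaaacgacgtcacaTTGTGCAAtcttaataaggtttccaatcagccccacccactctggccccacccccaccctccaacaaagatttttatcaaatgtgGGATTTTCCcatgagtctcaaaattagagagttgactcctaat
The Lif promoter held 1 match, TGACTCA, from 228 to 222 bases before the start. In the Il6 promoter there were 3 matches, GGATTTTCC at 43 to 35, TTGTGCAA at 128 to 121 and TGAGTCA at 249 to 243 bases before the start. Among 32851 promoters of the same length, the NF-kB letters were found in 4.93%, the AP-1 letters in 6.75%, the C/EBP letters in 5.65% and the STAT letters in 7.02%. RefSeq promoters were matched for 9 of the 10 genes, 11 promoters in all, and the one not matched was Clcf1. Outside Lif and Il6 the matches were TGAGTCA in 1 of 2 promoters of Il11 and TTCTTAGAA, from 154 to 146 bases before the RefSeq start, in Socs3. That Socs3 promoter, at 117969367 to 117969616 on the minus strand, and that Il11 promoter lie inside the GENCODE spans of their genes. The promoters of Il6st, Osmr, Jak1 and Stat3 and the 2 of Lifr held none of these letters, and a match or its lack says nothing by itself about binding.

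Levels of different genes were set side by side in FPKM, the deposited values scaled by sequencing depth and gene length. Jak1, the kinase gene, was the most abundant with a mean of 28.2 FPKM over the 6 libraries (range 26.6 to 30.7). Clcf1 with 12.0 (10.8 to 13.3), Socs3 with 10.99 (9.19 to 11.9), Il6st with 9.46 (9.0 to 9.85) and Stat3 with 7.73 (6.94 to 8.40) followed. A lower tier was made of Osmr at 2.90 (2.28 to 3.79), Il6 at 1.73 (1.12 to 2.39) and Lif at 1.22 (0.870 to 1.50). The lowest were Lifr at 0.503 (0.430 to 0.620) and Il11 at 0.293 FPKM (0.190 to 0.360). Over the 6 libraries the ranges of Clcf1 and Socs3 overlapped, as did those of Socs3 and Il6st, of Osmr and Il6 and of Il6 and Lif, while the other neighbours in the order had separate ranges. Within the single libraries, Clcf1 was above Socs3 in 4 of 6, Il6 was above Lif in 5 of 6, and Socs3 was above Il6st and Osmr above Il6 in 6 of 6.

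**Figure D1:**
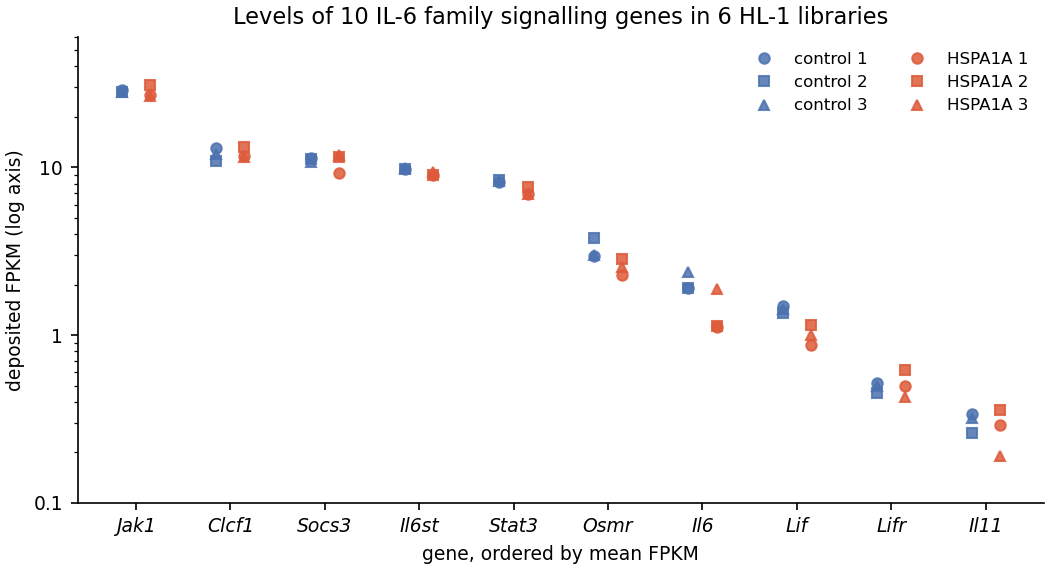
Deposited FPKM (log axis) of the 10 genes in 6 libraries, ordered by mean level, with control libraries in blue, HSPA1A libraries in red and the replicate number as the symbol. Jak1 lies highest at 26.6 to 30.7 FPKM and Il11 lowest at 0.190 to 0.360 FPKM.

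The ligand genes came first. Lif encodes leukemia inhibitory factor, which signals through the LIF receptor with gp130, and lies on chromosome 11 at 4257557 to 4272514 with up to 4 exons (ENSMUSG00000034394.12). Its level, in CPM (read counts scaled by library depth and the TMM factor), was 6.49, 5.77 and 6.09 with the control plasmid and 3.93, 4.94 and 4.55 with HSPA1A. All HSPA1A libraries lay below all control libraries, and HSPA1A replicate 1 was the lowest. The group means were 6.12 ± 0.36 CPM in control and 4.47 ± 0.51 CPM in HSPA1A cells (SD, n = 3 each). The log2 fold change was -0.45 ± 0.13 (SE), with a 95% interval from -0.74 to -0.16, an unadjusted p of 0.00588 and an adjusted p of 0.411 (edgeR). By p, Lif ranked within the lowest 1.40% of tested genes and did not pass the test. In bulk RNA, fewer cells that express a gene and less RNA per cell cannot be told apart. Groups without overlap were seen in the lower direction for 3 of the 10 genes, Lif, Osmr and Stat3, against 7.17% of all tested genes, and in the higher direction for 0 of 10, against 7.30%.

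Il6 encodes interleukin 6, the founding ligand of the family, on chromosome 5 at 30013114 to 30019981 with up to 5 exons (ENSMUSG00000025746.9). Its values were 4.99, 4.89 and 6.13 CPM with the control plasmid and 3.03, 2.92 and 5.13 CPM with HSPA1A. HSPA1A replicates 1 and 2 were below every control, and HSPA1A replicate 3 lay among the controls. In deposited FPKM that library was just below the lowest control, at 1.89 against 1.92, so whether the groups overlap depends on the scaling. The log2 fold change of -0.54 ± 0.21 (SE) had an interval from -1.0 to -0.07, an unadjusted p of 0.0287 and an adjusted p of 0.528 (edgeR). Without HSPA1A replicate 3 the log2 fold change was -0.84 ± 0.17 (adjusted p = 0.205, edgeR), and without HSPA1A replicate 2 it was -0.38 ± 0.19 (adjusted p = 0.237, edgeR).

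Clcf1 and Il11 gave no such values. Clcf1 encodes cardiotrophin-like cytokine factor 1, which signals through the CNTF receptor, the LIF receptor and gp130, and it lies on chromosome 19 at 4214238 to 4223490 (ENSMUSG00000040663.8). It stood at 25.7, 21.0 and 23.3 CPM with the control plasmid and 23.9, 26.1 and 23.8 CPM with HSPA1A, so the groups overlapped. The interval of its difference ran from 0.929 to 1.20 times the control level (adjusted p = 0.829, edgeR). In FPKM, Clcf1 was the most abundant of the 4 ligand genes in every library, at 7.96 to 13.3 times the level of Lif. Clcf1 overlaps AC109138.7 on the same strand and Gm26115 on the other, neither of them among the genes with counts. Il11, the gene of interleukin 11, a ligand known in cardiac fibrosis, lies on chromosome 7 at 4772373 to 4782859 (ENSMUSG00000004371.12). It had few reads, with 13, 9 and 12 reads in control and 10, 14 and 7 reads in HSPA1A libraries. Its interval, from 0.556 to 1.63 times the control level, did not resolve a change of this gene at this depth (adjusted p = 0.964, edgeR).

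**Figure D2:**
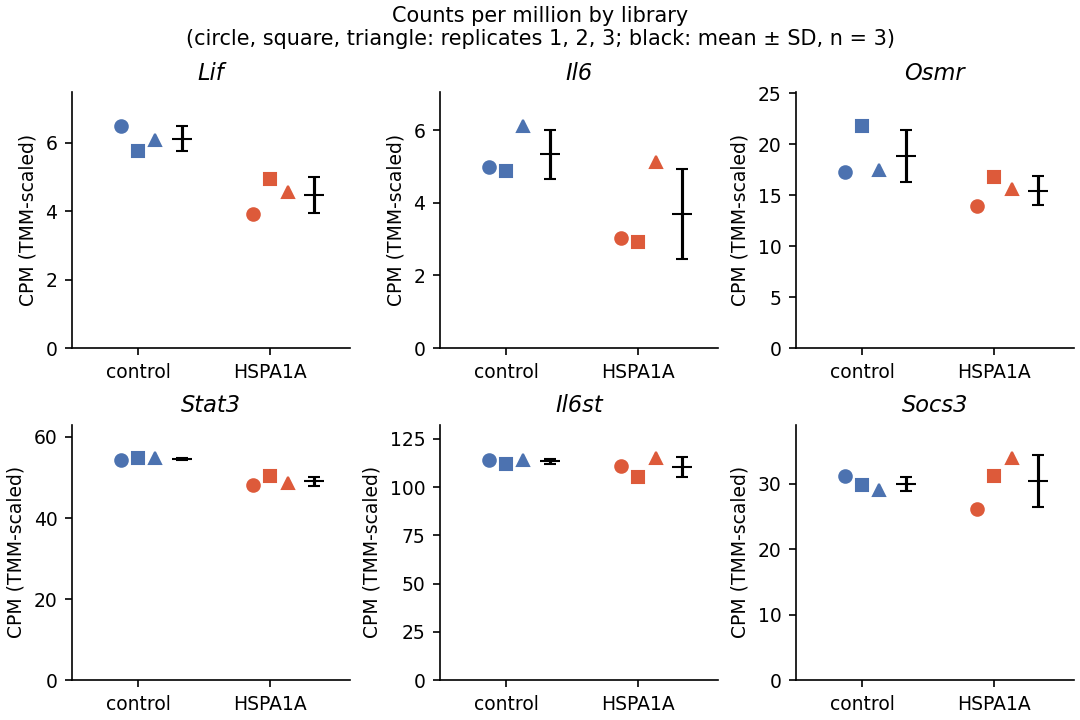
CPM scaled by TMM for 6 of the genes in each library (blue control, red HSPA1A; circle, square and triangle for replicates 1 to 3), with the mean ± SD (n = 3) in black and axes from 0. The groups are apart for Lif, Osmr and Stat3 and overlap for Il6, Il6st and Socs3.

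Among the receptor chains, Osmr, which encodes the oncostatin M receptor, had the lowest p. It lies on chromosome 15 at 6813577 to 6874969 on the minus strand (ENSMUSG00000022146.10). It had 17.3, 21.8 and 17.4 CPM with the control plasmid and 14.0, 16.8 and 15.6 CPM with HSPA1A. The groups did not overlap, but the gap between HSPA1A replicate 2 and control replicate 1 was small, and control replicate 2 was high. The log2 fold change was -0.28 ± 0.11 (SE; interval -0.52 to -0.04), with an unadjusted p of 0.0246 and an adjusted p of 0.526 (edgeR). Without control replicate 2 it was -0.17 ± 0.10 (adjusted p = 0.882, edgeR).

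Il6st encodes gp130, the chain that the products of Lif, Il6, Il11 and Clcf1 all signal through, and lies on chromosome 13 at 112464070 to 112510086 with up to 18 exons (ENSMUSG00000021756.10). Its level was 114, 112 and 114 CPM with the control plasmid and 111, 105 and 115 CPM with HSPA1A, and the groups overlapped. The interval, from 0.899 to 1.05 times the control level, spanned differences in either direction (adjusted p = 0.866, edgeR). In deposited FPKM the groups were apart, at 9.73, 9.74 and 9.85 in control and 9.05, 9.0 and 9.36 in HSPA1A libraries, and the FPKM fit gave no call (adjusted p from 0.477 to 0.533, limma). Genes at large stood lower on that scale: the median log2 fold change over all tested genes was -0.055 to -0.041 in the FPKM fits, against 0.0029 in the main fit. How many of all genes had groups apart in FPKM was not counted. Lifr, the gene of the LIF receptor, is on chromosome 15 at 7090614 to 7197489 (ENSMUSG00000054263.9), 215.6 kb from Osmr with 1 annotated gene between them. It had 5.78, 4.89 and 5.48 CPM with the control plasmid and 5.72, 6.86 and 4.92 CPM with HSPA1A, with an interval from 0.867 to 1.36 times the control level (adjusted p = 0.850, edgeR). HSPA1A replicate 2 had the highest Lifr value of the 6 libraries. Per kilobase, Il6st stood at 14.5 to 21.8 times Lifr and at 2.57 to 3.97 times Osmr within the single libraries.

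Jak1, which encodes a kinase bound to gp130, lies on chromosome 4 at 101152367 to 101265282 (ENSMUSG00000028530.12). It had 152, 144 and 144 CPM with the control plasmid and 147, 161 and 146 CPM with HSPA1A. The groups overlapped, and the interval ran from 0.945 to 1.12 times the control level (adjusted p = 0.865, edgeR). Jak1 overlaps Gm12785 on the same strand and Raver2 and Gm24468 on the other, none of them among the genes with counts. Stat3, the gene of the transcription factor at the end of the pathway, is on chromosome 11 at 100885098 to 100939540 with up to 24 exons (ENSMUSG00000004040.14). Its values were 54.2, 54.8 and 54.8 CPM with the control plasmid and 48.3, 50.4 and 48.6 CPM with HSPA1A. The controls were within a narrow band and every HSPA1A library lay below it. The log2 fold change was small, -0.15 ± 0.05 (SE; interval -0.26 to -0.04), with an unadjusted p of 0.0111 and an adjusted p of 0.470 (edgeR). Stat3 overlaps Stat5a on the other strand, and the strand setting of the counting is not known here, so some of its reads may belong to Stat5a.

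Socs3, the feedback inhibitor that STAT3 induces, lies on chromosome 11 at 117966079 to 117970047 (ENSMUSG00000053113.3). It stood at 31.2, 29.9 and 29.0 CPM with the control plasmid and 26.2, 31.2 and 34.0 CPM with HSPA1A. HSPA1A replicate 1 had the lowest and HSPA1A replicate 3 the highest value of all 6 libraries, so the groups overlapped fully. The interval of the difference was 0.886 to 1.16 times the control level (log2 fold change 0.02 ± 0.09 SE, adjusted p = 0.956, edgeR). The sign of this estimate was negative on library totals alone, at -0.015, where the median over all tested genes was -0.033.

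**Figure D3:**
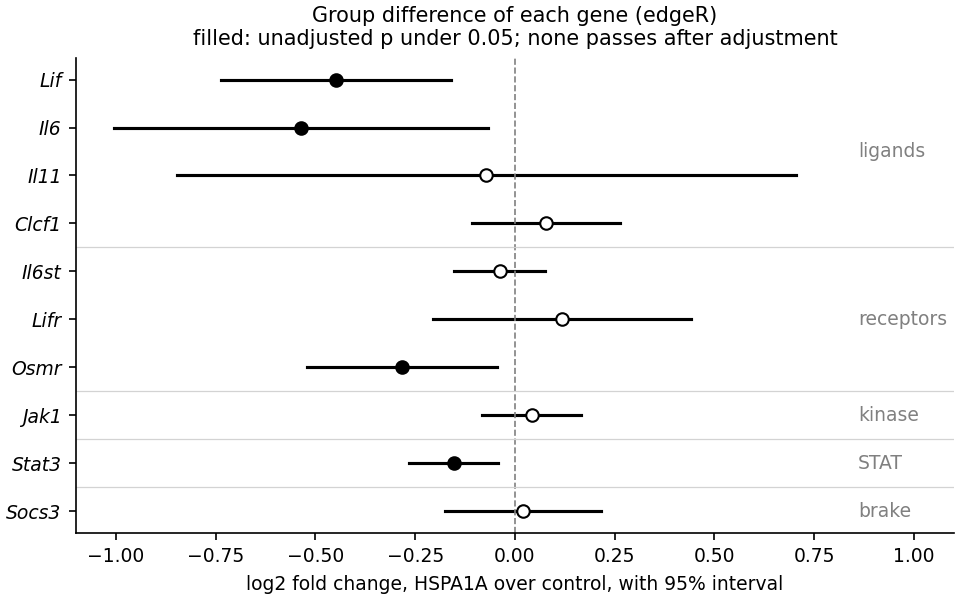
Log2 fold change of HSPA1A over control with its 95% interval for each of the 10 genes, grouped by role, with filled points for an unadjusted p under 0.05. The intervals of Lif, Il6, Osmr and Stat3 lie below 0 and the other 6 include 0, while none of the 10 passed the test after adjustment.

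The library that stood apart, nearer to the controls than to the other HSPA1A libraries, decided whether any of the genes was called. Without HSPA1A replicate 2, edgeR called Lif (log2 fold change -0.53 ± 0.14, adjusted p = 0.0271), Stat3 (-0.17 ± 0.05, adjusted p = 0.0432) and Osmr (-0.34 ± 0.10, adjusted p = 0.0477) lower. In that fit 3 of 10 genes were called lower, against 4.94% of all tested genes, and 0 of 10 higher, against 5.27%. Over all tested genes it called 640 lower and 683 higher, against 20 and 3 with all 6 libraries. The 10 genes were chosen with results of these data known, so the count of 3 is a description. Leaving out any other library gave no call among the 10, with adjusted p-values of at least 0.205 (edgeR). The log2 fold changes with 1 library left out ran from -0.53 to -0.36 for Lif, from -0.84 to -0.38 for Il6, from -0.34 to -0.17 for Osmr and from -0.17 to -0.14 for Stat3. With Yam1 added to the model, an alternative chosen after seeing the data, they were -0.40 ± 0.19, -0.69 ± 0.31, -0.09 ± 0.14 and -0.12 ± 0.08, none called. Yam1 itself had a log2 fold change of 0.72 ± 0.21 between the groups, which overlapped (unadjusted p = 0.00662, adjusted p = 0.425, edgeR). Because Yam1 went partly with the group, this fit cannot separate the 2. The part of Yam1 in these differences was not tested.

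**Figure D4:**
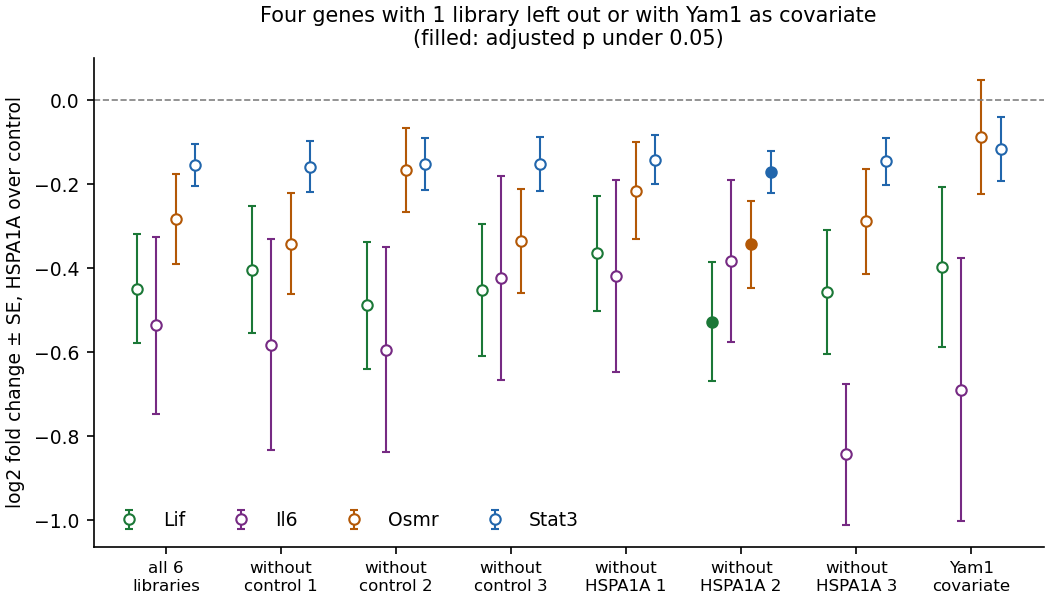
Log2 fold change ± SE of Lif, Il6, Osmr and Stat3 with all 6 libraries, with each library left out and with Yam1 as a covariate; filled points have an adjusted p under 0.05. All values are negative, and the filled points are Lif, Osmr and Stat3 in the fit without HSPA1A replicate 2.

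By the correlation of log2 CPM over the 6 libraries, the genes with a pattern most like that of Lif were Usp43 (Pearson r = 0.996), Cp (0.993), Cep131 (0.991), Bcar3 (0.989) and Man2c1 (0.988), out of 9712 genes with a mean of at least 5 CPM. Cp encodes ceruloplasmin, a copper protein of the acute-phase response. All these correlations rest on the same 6 libraries with the same split into groups. An r above 0.9 was found for 196 genes, and none of the 5 passed the test between the groups (adjusted p from 0.143 to 0.424, edgeR).

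The other genes of the pathway were described from 6 further lists, chosen with earlier results known. Of 8 other ligand genes, 5 had reads and 3 were tested, and 0 were called. Cntf, the gene of ciliary neurotrophic factor, was the most abundant of them at 1.52 FPKM, with 2.21, 1.6 and 2.27 CPM with the control plasmid and 1.41, 1.40 and 1.57 CPM with HSPA1A (log2 fold change -0.48 ± 0.21, adjusted p = 0.568, edgeR). Its groups did not overlap, by a margin of 40 reads in control replicate 2 against 38 in HSPA1A replicates 2 and 3, and the gene overlaps Zfp91 on the same strand. Ctf1, the cardiotrophin 1 gene, had a log2 fold change of -0.24 ± 0.29. Osm, Ebi3 and Il31 were not analysed here.

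Of the ligand-specific receptor genes, Il11ra1 (mean 1.47 FPKM) and Il6ra (1.40 FPKM) were tested and neither was called. Il6ra, the chain that binds interleukin 6 before gp130 is recruited, had a mean of 12.9 ± 1.4 CPM with the control plasmid and 13.2 ± 1.6 CPM with HSPA1A (SD, n = 3 each; log2 fold change 0.02 ± 0.11). Il11ra1, the interleukin 11 receptor gene, had a log2 fold change of -0.11 ± 0.17 and overlaps other genes on both strands. Cntfr, the receptor chain for CNTF and CLCF1, had between 1 and 9 reads per library and was not tested.

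Among the other JAK and STAT genes 0 of 8 tested were called, with a median log2 fold change of 0.023. Tyk2, another kinase of gp130 receptors, had a log2 fold change of -0.25 ± 0.13 and Stat6 of 0.30 ± 0.25, and neither passed the test. In FPKM, Jak1 was 2.79 to 3.39 times Jak2 and 8.73 to 13.2 times Tyk2 within the single libraries.

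Other brakes of the pathway, the SOCS, PIAS and phosphatase genes, had 0 of 14 tested genes called and 12 of 14 negative log2 fold changes with a median of -0.042, where 49.0% of all tested genes were negative. Socs2, a brake best known in growth hormone signalling, had 66.5, 61.4 and 62.8 CPM with the control plasmid and 47.6, 59.7 and 59.3 CPM with HSPA1A (log2 fold change -0.19 ± 0.08, adjusted p = 0.563, edgeR). All HSPA1A values of Socs2 were below the controls, and replicate 1 was far below the other libraries. Pias3, which inhibits STAT3, had a log2 fold change of -0.23 ± 0.11 and Pias4 of -0.08 ± 0.05. In the branch through SHP2, RAS and PI3K, 0 of 14 tested genes were called, and the log2 fold changes lay between -0.10 and 0.07, with -0.09 ± 0.05 for Shc1 and -0.10 ± 0.07 for Gab2. Without HSPA1A replicate 2, edgeR called Tyk2 (1 of 8 other JAK and STAT genes) and Socs2 and Pias3 (2 of 14 other brakes) lower. It called 0 of 3 other ligand genes, 0 of 2 other receptor genes and 0 of 14 genes of the SHP2, RAS and PI3K branch. The share of all tested genes called lower in that fit was the same 4.94%.

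In the test on all 6 libraries, the only calls among the genes of the pathway lists were in the list of known STAT3 targets. Of 30 genes listed, 26 had reads and 23 were tested, and 3 were called lower and 0 higher, where 0.156% and 0.0234% of all tested genes were called in these directions. Of the 23 log2 fold changes 16 were negative, against the same 49.0%, and their median was -0.087. Lcn2, the gene of lipocalin 2, had 56.1, 81.2 and 73.3 CPM with the control plasmid and 20.0, 13.3 and 31.3 CPM with HSPA1A (log2 fold change -1.71 ± 0.24, adjusted p = 0.0192, edgeR). Cebpd, the gene of a C/EBP transcription factor, had 11.7, 18.1 and 15.3 CPM against 8.28, 6.35 and 8.07 CPM (log2 fold change -0.99 ± 0.16, adjusted p = 0.0483, edgeR). Hp, the gene of haptoglobin, had 17, 23 and 34 reads with the control plasmid and 2, 5 and 1 with HSPA1A (log2 fold change -3.09 ± 0.50, adjusted p = 0.0483, edgeR). In all 3 genes every HSPA1A library lay below every control library, which adds no separate support to calls made on the same values. Groups without overlap were seen lower in 7 of the 23 genes and higher in 2, against 7.17% and 7.30% of all tested genes. Lcn2, Cebpd and Hp are acute-phase genes that NF-kB or C/EBP factors are also known to act on. They were known to be lower here when the list was made, so these counts are not independent evidence of a direction of STAT3 targets. Cebpd overlaps Spidr on the other strand.

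Each of the 3 calls ended when some single libraries were left out. Lcn2 was not called without control replicate 2 (adjusted p = 0.108), control replicate 3 (0.143) or HSPA1A replicate 1 (0.118), by edgeR. Cebpd kept the call only without control replicate 1 or HSPA1A replicate 2, and Hp lost it in every such fit but the one without HSPA1A replicate 2. Cebpd and Hp also lost it with RLE size factors (adjusted p = 0.0507 and 0.0502, edgeR), Cebpd with limma-voom (0.0791) and the 5 CPM filter (0.0708), and Hp on library totals alone (0.0550). The fits of log2 FPKM called none of the 3. In the model with Yam1 none was called either, with log2 fold changes of -1.88 for Lcn2, -0.89 for Cebpd and -2.24 for Hp (adjusted p from 0.197 to 0.673, edgeR). DESeq2 called 5 of the 23, these 3 and, named after their values were seen, Bcl3 (1.65, 2.97 and 2.04 CPM with the control plasmid and 0.725, 1.03 and 0.910 CPM with HSPA1A) and Saa3 (5.07, 6.57 and 7.22 against 3.46, 3.14 and 4.38 CPM). Without HSPA1A replicate 2, edgeR called 7 of the 23 lower, where it called 4.94% of all tested genes lower. Pim1, a kinase gene induced by STAT3, stood higher in all HSPA1A libraries, at 46.4 ± 1.0 against 41.4 ± 2.2 CPM (SD, n = 3 each), and did not pass the test (log2 fold change 0.17 ± 0.06, adjusted p = 0.490, edgeR). It was named after its values were seen.

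**Figure D5:**
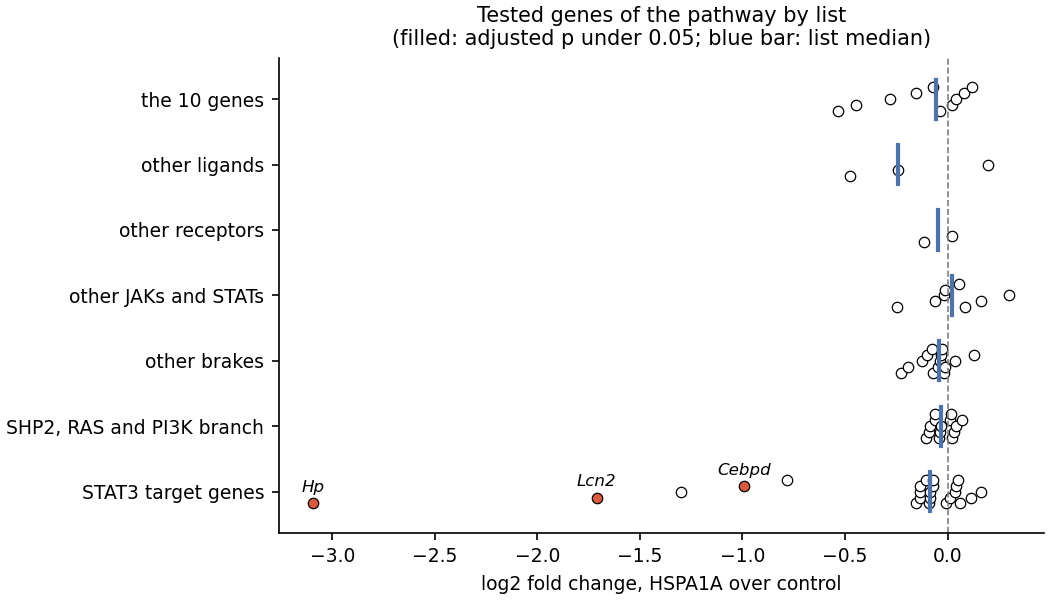
Log2 fold change of HSPA1A over control for every tested gene of the 10 and of the 6 further lists (points; blue bar for the list median), with filled and named points for an adjusted p under 0.05. Only Hp, Lcn2 and Cebpd are filled, at -3.09, -1.71 and -0.99, and the medians lie between -0.24 and 0.023.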

How the data were processed

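The authors deposited 1 column of whole read counts per library for 22913 genes, and FPKM for 22833 of them, per the file headers. How the authors counted reads, with which strand setting, and the gene lengths behind the FPKM are not known here. Named in the submitters' processing notes are TopHat2, bcl2fastq, GRCm38 and edgeR, with no version or role.

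Counts were scaled by TMM and tested by edgeR 4.0.16 under R 4.3.3 (glmQLFit, glmQLFTest, Benjamini-Hochberg threshold 0.05), on genes that passed filterByExpr (count minimum 10, total minimum 15). The main edgeR fit, limma-voom, DESeq2 and a limma fit of log2 scaled counts were run on simulated counts that differed by group alone. The other fits were not run on them. The simulated counts held no library that stood apart as HSPA1A replicate 2 did, so that check does not cover its effect on the calls. The members, the lists and the motifs were chosen with earlier results of these data known. Named were the 10 genes, the called genes of each further list or else up to 3 by p, the most abundant other ligand and receptor, and the 5 genes most like the member with the smallest p. Some genes that this rule names are not reported here. Alternatives used DESeq2 1.42.0, limma 3.58.1 (voom, or log2 of the deposited FPKM plus 1 or 0.1), other scaling, filters and designs, and 1 library left out. Every pair of libraries differed by more than counting noise (chi-square per degree of freedom from 2.68 to 26.1). Figures were drawn with matplotlib 3.10.9.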

Additional observations from a re-analysis of the deposited data

How the results depend on the processing

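Under the alternatives, 149 log2 fold changes of the 10 genes kept their direction and their side of the threshold, 14 changed sign and 3 passed the threshold (Lif, Osmr and Stat3 without HSPA1A replicate 2). Lif, Il6, Osmr, Stat3 and Il6st were negative and Clcf1 was positive in every fit that tested them, and all fits reuse the same libraries. Among all tested genes the main test called 3 higher and 20 lower, with 0 of the 10 genes and 3 other pathway genes called. With 1 library left out these counts ran from 0 to 683 higher, 10 to 640 lower, 0 to 3 of the 10 genes and 0 to 10 other pathway genes, each highest without HSPA1A replicate 2. The counts higher, lower and among other pathway genes were 26, 38 and 5 with DESeq2, 94, 111 and 5 with no filter on low counts, 1, 17 and 1 with RLE size factors, 1, 18 and 2 on library totals alone, 1, 16 and 1 with at least 5 CPM in 3 libraries, 3, 8 and 0 with the Yam1 covariate (chosen after seeing the data), and 0, 15 and 0 in each of the 3 fits of log2 FPKM. None of these fits called any of the 10 genes, and the cause of the changes in count was not tested.

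With 1 library left out, the log2 fold change ran from -0.28 to 0.12 for Il11, from -0.018 to 0.23 for Lifr, from -0.0018 to 0.069 for Jak1 and from -0.061 to 0.12 for Socs3, so their signs were not settled. Il11 was at 0.057 with the Yam1 covariate. Jak1 was at -0.016 in FPKM with a pseudocount of 1, with or without a minimum mean of 1 FPKM, and at -0.017 with 0.1. Socs3 was at -0.015 on library totals alone, at -0.041 in FPKM with a pseudocount of 1, with or without that minimum, and at -0.045 with 0.1. Over all tested genes the median was also negative in these fits. It was -0.033 on library totals alone, -0.041 in FPKM with a pseudocount of 1, -0.049 with that minimum and -0.055 with 0.1. Il6, Il11 and Lifr were left out by 1 or more of the stricter filters. Few reads limit Il11, whose interval was the widest of the 10.

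Same-numbered libraries did not deviate together (correlations of -0.14, -0.033 and 0.097 for replicates 1, 2 and 3), so the numbers were not taken as pairs. A fit with the replicate block called 3 genes higher and 13 lower, with 0 of the 10 genes and 1 other pathway gene called (Lcn2; the adjusted p was 0.0682 for Cebpd and 0.0557 for Hp, edgeR).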
